A study of Mus musculus with 12 samples.

Results

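The collagens and structural proteins of the extracellular matrix were followed across 12 arrays of cultured mouse embryonic fibroblasts put through fat cell differentiation. Members were every gene whose symbol has the form of a collagen α chain, and a fixed list of 22 other matrix proteins. This gave 36 collagen genes and 22 listed proteins, 58 members of which 56 were among the 12393 genes named on the array. Above the intensity filter lay 27 collagens and 18 of the other proteins, 45 of 8675 genes tested. The cells were knocked out for PPARγ, a ligand-activated transcription factor that fat cells need to form, so all 4 groups lacked their own receptor and carried an introduced one. The introduced receptor was wild-type in 3 groups. In the other, which the sample titles call mutant, it was S273A, in which alanine replaces a serine that is a phosphorylation site. All cells had been differentiated for 6 days. Of the groups with wild-type PPARγ, 1 stayed without ligand, 1 received 1 µM rosiglitazone for 24 h and 1 received 1 µM MRL24 for 24 h. Rosiglitazone is a full agonist of the receptor that carries a thiazolidinedione group, and MRL24 is a PPARγ ligand without that group. Each group had 3 arrays of total RNA. How the receptor was introduced, whether a population was 1 clone, and whether replicates were separate cultures are not given in the sources used here. The p-values therefore cover array-to-array spread that may be technical only, and S273A cannot be told apart from any other difference between the 2 cell populations.

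Collagens are trimers of α chains. Fibrillar collagens such as types I, III and V form the tensile fibres of connective tissue, type IV forms the sheet of basement membranes, type VI forms beaded microfilaments around cells, and types XV and XVIII lie at the basement membrane zone. Adipocytes are each wrapped in a basement membrane, and during fat cell differentiation in culture a fibroblast matrix rich in fibrillar collagen and fibronectin is known to give way to one richer in type IV and type VI collagen and laminin. The other members are proteoglycans, elastic fibre proteins, laminins, adhesive and matricellular proteins that modify cell contact, and lysyl oxidases that crosslink collagen and elastin.

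The stretches upstream of 4 collagen genes are shown, chosen in pairs from the called collagens: Col1a2 and Col3a1, which fell with S273A, and Col6a3 and Col15a1, which rose with rosiglitazone. Other collagens also fell or rose in these comparisons. They end just before the annotated start in RefSeq on GRCm38.p6 and are read on the strand of the gene. Capitals mark matches on either strand to the CCAAT box, the Sp1 box GGGCGG, the TATA box TATAAA or the nuclear receptor half-site AGGTCA.
Col1a2: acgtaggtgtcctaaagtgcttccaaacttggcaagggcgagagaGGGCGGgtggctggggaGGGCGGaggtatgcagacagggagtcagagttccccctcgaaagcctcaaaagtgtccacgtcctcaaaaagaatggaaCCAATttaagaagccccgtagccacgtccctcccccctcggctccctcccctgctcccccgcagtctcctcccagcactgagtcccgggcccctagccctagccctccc
Col3a1: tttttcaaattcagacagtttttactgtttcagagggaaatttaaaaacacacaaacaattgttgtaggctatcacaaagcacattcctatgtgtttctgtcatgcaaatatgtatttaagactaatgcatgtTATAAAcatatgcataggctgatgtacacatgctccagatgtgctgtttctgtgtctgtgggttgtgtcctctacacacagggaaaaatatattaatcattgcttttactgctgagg
Col6a3: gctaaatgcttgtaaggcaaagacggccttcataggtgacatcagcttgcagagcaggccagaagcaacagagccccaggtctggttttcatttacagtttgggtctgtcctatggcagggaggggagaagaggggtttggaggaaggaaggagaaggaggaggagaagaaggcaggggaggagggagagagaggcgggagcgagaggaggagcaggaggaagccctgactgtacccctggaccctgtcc
Col15a1: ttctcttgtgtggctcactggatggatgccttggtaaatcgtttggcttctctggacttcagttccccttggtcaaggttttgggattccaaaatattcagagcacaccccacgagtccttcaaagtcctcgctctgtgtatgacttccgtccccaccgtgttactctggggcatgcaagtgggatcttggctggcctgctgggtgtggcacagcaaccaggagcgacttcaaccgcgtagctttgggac
They lie at chr6:4505368-4505617 on the plus strand (Col1a2), chr1:45311288-45311537 on the plus strand (Col3a1), chr1:90843972-90844221 on the minus strand (Col6a3) and chr4:47207762-47208011 on the plus strand (Col15a1). The Col1a2 stretch held 2 matches to the Sp1 box and 1 to the CCAAT box. The Col3a1 stretch held 1 match to TATAAA, at -117 to -112 from the annotated start. These are matches of letters only, and whether any is in use was not tested. None of the listed letters occurred in the Col6a3 or Col15a1 stretch. Of 32851 RefSeq stretches of this length, 33.8% held the CCAAT box, 32.7% the Sp1 box, 12.4% the TATA box and 14% the half-site. In these 4 stretches no match overlapped a match to another motif. No motif of the list was found in both stretches of a pair, and nothing about any factor follows from that. RefSeq stretches were matched to 40 of the 58 members.

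Values are Affymetrix intensities on a linear scale, as deposited. Array medians lay between 297 and 315 and array maxima between 31882 and 33624. Differences were tested with limma on log2(intensity + 16) over all 8675 genes with Benjamini-Hochberg adjustment, and a gene was called at an adjusted p under 0.05. Folds are on that scale and understate the change of dim genes. Untreated wild-type replicate 2 stood apart, with a first principal component score of -16.07 against -6.05 to 7.92 on the other 11 arrays, and all 3 comparisons with untreated cells use it. Of the 9 adipocyte markers with a probe set, 7 lay above the filter, but Adipoq, the adiponectin gene, read 53.5 ± 14.1 and Cidec, a lipid droplet protein, 18.4 ± 12.8 in untreated wild-type cells. All 8 fibroblast markers lay above it. Adipoq and Cidec read 139.2 ± 4.8 and 97.5 ± 18.8 with rosiglitazone, and 68 ± 22.5 and 30.4 ± 9.9 with MRL24. Fabp4 of the same list read 25152.9 ± 209.3 and 15339.2 ± 199.1 with these ligands, against 9508.6 ± 782.4 untreated. The labels call the treated cells adipocytes, and the dim Adipoq and Cidec values go against that name in part. In bulk RNA, fewer cells of a type and less RNA per cell cannot be told apart.

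The first comparison asked how the matrix genes differed between S273A and wild-type cells without ligand. The chains of types I and III collagen were lower with S273A by 1.21- to 1.3-fold, and the α2 chain of type V by 1.14-fold. The matricellular protein periostin fell 1.61-fold and the elastic fibre protein fibulin 5 1.38-fold. The α1 chain of basement membrane collagen IV rose 1.24-fold. Of 27 tested collagens 5 fell and 2 rose, or 25.9% called against 7.78% of all genes (5.48% lower and 2.31% higher). The median log2 difference of the 27 was 0.011, against -0.0054 over all genes, and -0.032 without wild-type replicate 2.

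Among the fibrillar chains, Col1a1, the α1 chain of type I collagen, read 13727, 11543 and 13661 on the wild-type arrays and 11210.0, 10975 and 9854 on the S273A arrays. Col1a2, its α2 chain, read 13681, 11507 and 13447 against 10235, 10495 and 8960.3. In both, every S273A array lay below every wild-type array, and wild-type replicate 2 was the lowest of its group. The log2 differences were -0.28 (SE 0.063, adjusted p = 0.0122, n = 3) and -0.38 (SE 0.062, adjusted p = 0.00137). Col3a1, the chain of type III collagen, which joins type I in mixed fibrils, read 12653, 11633 and 12166 in wild-type and 9497, 9838 and 9054 in S273A cells. It fell by 0.36 on the log2 scale (SE 0.040, adjusted p = 4.69e-05), and its groups did not overlap. Col5a2, a chain of the type V collagen that starts fibrils, went from 6458, 6303 and 6307 to 5432, 5737 and 5631. This was a smaller fall of 0.18 (SE 0.037, adjusted p = 0.00605) between arrays that again stood clear of each other. Col3a1 and Col5a2 are neighbours on chromosome 1 of the mouse annotation, with no protein-coding gene between them.

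The other 4 fibrillar chains above the filter were not called, and all 8 had a negative difference. Col5a1, a further type V chain, read 6968, 6212 and 6863 in wild-type and 6130.5, 6687 and 6049 in S273A cells, which overlap (-0.087, 95% interval -0.19 to 0.020). Col5a3, Col11a1 and Col11a2 differed by -0.034, -0.093 and -0.11. With all 9 arrays of wild-type PPARγ on the other side, ligand or not, the 3 S273A arrays lay below every one for Col1a1, Col1a2, Col3a1 and Col5a2. This held for 8 of the 45 tested members, the others being Col15a1, Postn, Sparc and Fbln5, and for 5.01% of all genes. Col4a5 and Lama4 lay above all 9, as 2.54% of genes did.

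Probe sets of the same fibrillar gene differed in size but mostly not in direction. Where the brightest probe sets gave the values above, the second probe set of Col1a2 fell by 0.76 (SE 0.057) and that of Col3a1 by 0.79 (SE 0.076), farther than the ones used. The second Col1a1 probe set fell by 0.40 and that of Col5a2 by 0.40. Col5a1, not called by its brightest probe set, fell by 0.54 (SE 0.054, adjusted p = 1.53e-05) and 0.35 (SE 0.060, adjusted p = 0.00176) on its 2 others. When every probe set was a feature of its own, 10 of 15 fibrillar probe sets above the filter were called lower with S273A, none was called higher and 14 had a negative difference. Of all 13709 probe sets so tested, 5.58% were called lower. The 1 positive value was the dim second probe set of Col5a3, at 0.16 (SE 0.13). For each of Col1a1, Col1a2, Col3a1, Col5a1 and Col5a2 the brightest probe set gave the smallest difference.

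**Figure D1:**
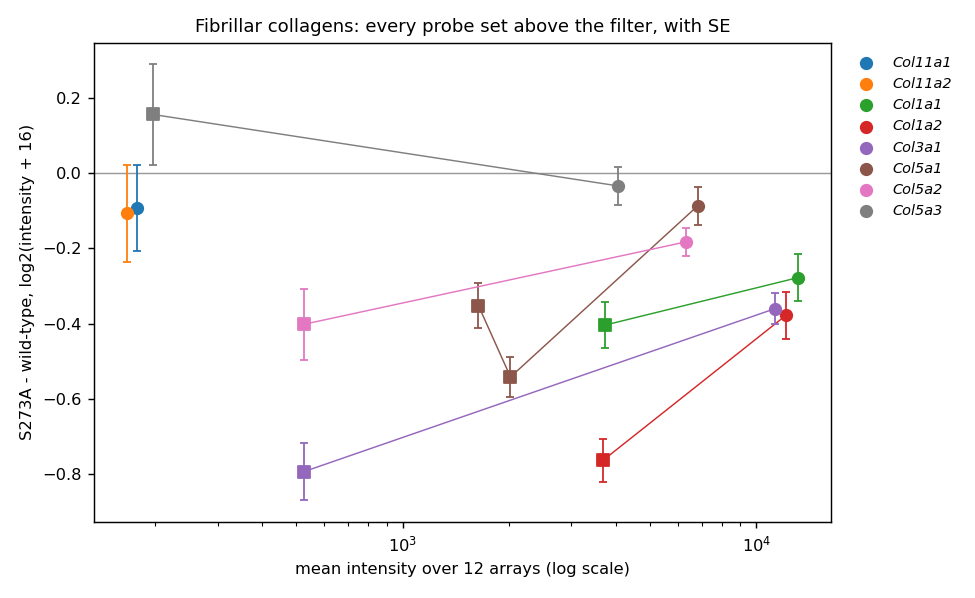
Difference between S273A and untreated wild-type cells (vertical axis, log2(intensity + 16), bars are SE, 3 arrays per group) for each of the 15 fibrillar collagen probe sets above the filter, against its mean intensity over 12 arrays (horizontal log axis). Circles are the brightest probe set of each gene and squares its others, joined by lines; 14 of the 15 lie below 0, and the squares of Col1a2 and Col3a1 lie lowest.

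Outside the fibrillar chains, Col16a1, a fibril-associated collagen, read 3207, 2841 and 3070.5 in wild-type and 2701, 2584 and 2356 in S273A cells and fell by 0.25 (SE 0.058, adjusted p = 0.0134). The basement membrane chain Col4a1 went the other way, from 6363, 6073 and 6266 to 7483, 8079.5 and 7601, with no overlap (log2 difference 0.31, SE 0.044, adjusted p = 0.000442). Its second probe set differed by only 0.11 (SE 0.045, adjusted p = 0.168). Col4a2, its partner chain in the same trimer, read 4523, 4097 and 4443 and 4549.6, 4557 and 4499.5 and was not called (0.060, 95% interval -0.031 to 0.15). The 2 genes are transcribed away from each other on chromosome 8, and their RefSeq promoter windows share 78 bases. Col18a1, the multiplexin whose end fragment is endostatin, read 6384, 5328 and 6369.9 in wild-type cells, where replicate 2 was low, and 6761, 7328 and 7114 with S273A. It rose by 0.23 (SE 0.060, adjusted p = 0.0248), while its second probe set gave 0.13 (adjusted p = 0.155).

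The type VI chains Col6a1, Col6a2 and Col6a3 were not called with S273A, at -0.015, -0.052 and 0.13. Their 95% intervals were -0.11 to 0.081, -0.15 to 0.041 and 0.023 to 0.24. The remaining 13 collagens that were not called, apart from the fibrillar and type VI chains, differed by -0.11 (Col15a1) to 0.22 (Col9a2). In 10 of the 27 collagens the 3 arrays of the groups did not overlap, 4 of them higher and 6 lower with S273A, against 23% of all genes.

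Of 18 other structural proteins 5 fell with S273A and none rose, or 27.8% called against 7.78% of all genes (5.48% lower and 2.31% higher). Postn, which encodes periostin, a matricellular protein that binds collagen and integrins, read 401, 405 and 409 in wild-type and 271, 248 and 219.5 in S273A cells. Its wild-type arrays agreed closely and the S273A arrays lay far below them, a log2 difference of -0.69 (SE 0.084, adjusted p = 0.000114). Fbln5, which encodes the elastin-binding fibulin 5, went from 813, 821 and 713 to 531, 602 and 555, also without overlap (-0.46, SE 0.072, adjusted p = 0.000971). Each is represented by 1 probe set on the array. The other 3 were called by the probe set used but not by another. Sparc, a collagen-binding glycoprotein, read 14684, 14756 and 14940.1 against 13115, 13975 and 13836 (-0.12, SE 0.031), and its second probe set differed by 0.093. The large hyaluronan-binding proteoglycan Vcan read 3228, 3584 and 3075 against 3043, 2805 and 2598 (-0.23, SE 0.065), and its 2 others differed by 0.072 and 0.085. The small proteoglycan Ogn read 288, 368 and 247 against 222, 210.3 and 226 (-0.41, SE 0.12), and its second probe set differed by -0.070. All 3 thus rest on a choice among probe sets that did not move alike. With the mean of all probe sets of a gene, 2 of the 18 proteins were called, both lower.

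The 13 structural proteins that were not called with S273A lay between -0.11 (Lox) and 0.27 (Fbln1). Fibronectin (Fn1), the main adhesive glycoprotein of fibroblasts, read 28639.8, 27431 and 29058 in wild-type and 29616, 29634 and 28909 in S273A cells (0.051, 95% interval -0.016 to 0.12). These values lie near the brightest on any array, where a change can be compressed, and a dimmer Fn1 probe set differed by -0.28 (SE 0.10, adjusted p = 0.119). Decorin (Dcn), a small proteoglycan that coats collagen fibrils, read 18490.1, 16411 and 18077 against 18063, 18745 and 17286, and elastin (Eln) 293, 286 and 306 against 325, 285 and 370.2. Neither pair of groups separated. Fbln1, the fibulin nearest to a call, read 828, 672 and 800.4 against 853, 1033 and 902 (adjusted p = 0.0632).

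Without wild-type replicate 2, the array that stood apart, 7 collagens and 6 other proteins were called, beside 649 of all genes. The 6 proteins were all lower. They did not include Ogn or Vcan, so some of them were not called with all 12 arrays. The calls of Col1a2, Col3a1, Col4a1, Postn and Fbln5 held without any 1 of the 12 arrays, as did that of Col5a2. Col1a1 missed the threshold without wild-type replicate 3 (adjusted p = 0.0507) or S273A replicate 3 (0.069), Col16a1 without wild-type replicate 1 (0.055) or S273A replicate 3 (0.0709), and Col18a1 without S273A replicate 2 (0.106) or 3 (0.0796). Sparc was lost without wild-type replicate 3 (0.0785) or S273A replicate 1 (0.114) or 3 (0.0503). Ogn and Vcan were lost without any of several arrays, among them wild-type replicate 2, without which Ogn differed by -0.27 (adjusted p = 0.177) and Vcan by -0.17 (0.134). Fibroblast markers moved with these genes: the growth factor receptor Pdgfra fell by 0.64, its relative Pdgfrb by 0.30 and the surface protein Thy1 by 0.24 on the log2 scale, 3 of 8 on that list. Of 7 tested adipocyte markers none fell, and 1, the fatty acid transporter Cd36, rose by 0.82. Cd68 of the macrophage list and Tek of the endothelial list were higher and Krt18 of the epithelial list lower, and the chondrocyte, osteoblast and muscle lists gave no call. The summed intensity of the fibroblast list was 66760.0 to 71720.0 in wild-type and 67320.0 to 69510.0 in S273A arrays. Most of this sum was Vim, S100a4 and Dlk1 (means 31091, 13908 and 13702 in wild-type cells). It therefore hardly reflects Pdgfra, Pdgfrb or Thy1 (2134, 2110 and 1866). The part of these markers in the lower collagens was not tested.

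**Figure D2:**
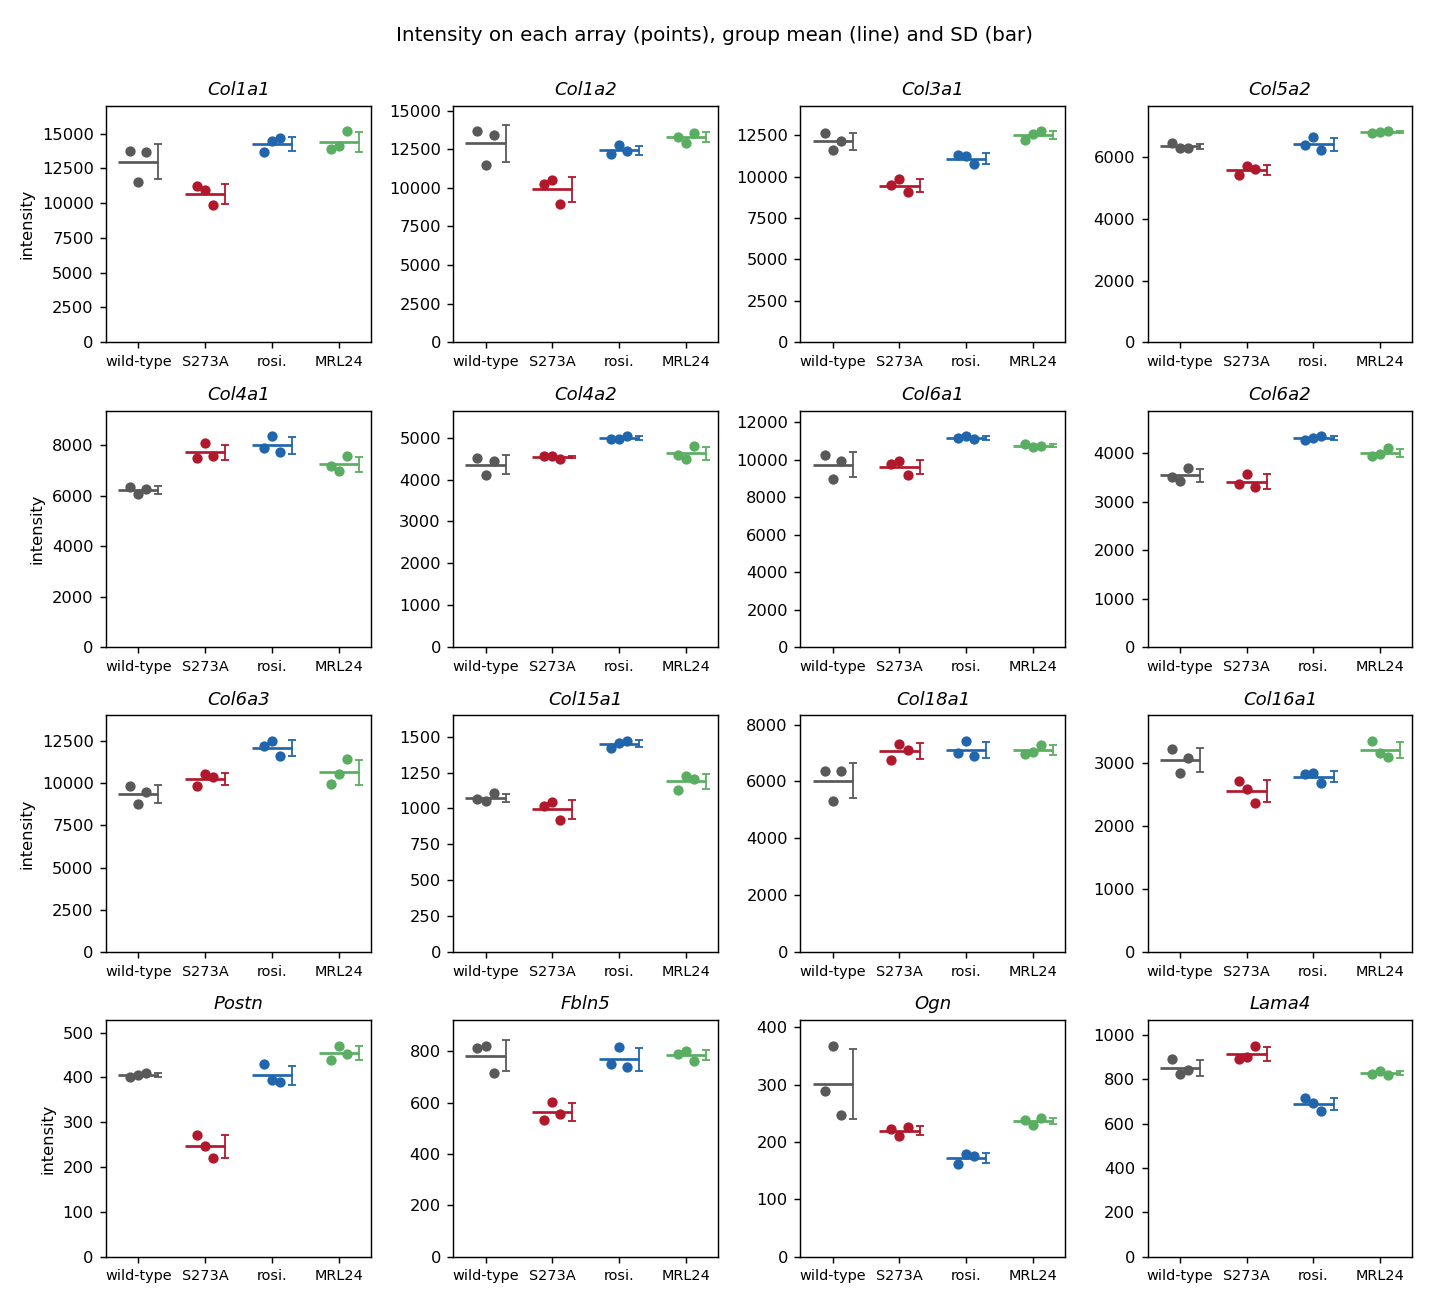
Intensity (vertical axes, starting at 0) of 16 members on each of the 12 arrays, with the mean (line) and SD (bar) of the 3 arrays of untreated wild-type, S273A, rosiglitazone and MRL24 groups. The red S273A points sit below all others for Col1a1, Col1a2, Col3a1, Col5a2, Postn and Fbln5, and the blue rosiglitazone points sit above all others for Col15a1, Col4a2, Col6a1, Col6a2 and Col6a3.

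The second comparison set 24 h of rosiglitazone against no ligand in wild-type cells. The type IV chains Col4a1 and Col4a2, all 3 tested type VI chains, Col15a1 and Col18a1 rose, by 1.15- to 1.35-fold. None of the 8 fibrillar chains was called. Of 27 collagens 7 rose and none fell, or 25.9% called against 8.52% of all genes (3.94% higher and 4.58% lower). Their median difference was 0.10 against -0.0027 over all genes, and 0.058 without untreated replicate 2. Of the 18 other proteins 3 fell and none rose (16.7% called): osteoglycin, versican and the laminin chain Lama4. This direction depended on the probe sets: with the mean of all probe sets of a gene, 2 of the 18 rose, Sparc among them, and 1 fell.

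Col15a1, the collagen XV chain, read 1424, 1459 and 1472 with rosiglitazone against 1066, 1052 and 1107 without ligand. The rise of 0.43 on the log2 scale (SE 0.060, adjusted p = 0.000253, n = 3) was far wider than the spread within either group. Of the type VI chains, Col6a3, the large chain whose end fragment is endotrophin, went from 9815, 8761 and 9471 to 12171, 12508 and 11594 (0.37, SE 0.052, adjusted p = 0.000287). Col6a2 went from 3503, 3425 and 3687 to 4278, 4306 and 4354 (0.28, SE 0.044, adjusted p = 0.000662), and its second probe set rose by 0.24. Col6a1 went from 10261, 8963 and 9929 to 11129, 11260.1 and 11087 (0.20, SE 0.045, adjusted p = 0.0101). The 3 chains that make up the type VI trimer thus rose together, with no overlap between groups in any. Col6a1 and Col6a2 are neighbours on chromosome 10, and Col6a3 lies on chromosome 1.

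Among basement membrane collagens Col4a1 read 7881, 8378 and 7747 with rosiglitazone, a rise of 0.36 (SE 0.044, adjusted p = 7.18e-05) from the untreated values given above. Its second probe set rose by 0.27 (SE 0.045, adjusted p = 0.00128). Col4a2 read 4960.1, 4970.2 and 5040.4, higher by 0.20 (SE 0.043, adjusted p = 0.00866). Both chains of the common type IV trimer were therefore higher. Col4a5, a chain of another type IV trimer and the third tested, differed by -0.034, and by -0.27 (adjusted p = 0.0544) on its second probe set. Col18a1 read 6994, 7432 and 6888, higher by 0.24 (SE 0.060, adjusted p = 0.0195), and its second probe set by 0.14 (adjusted p = 0.122).

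The fibrillar chains gave -0.13 for Col3a1 to 0.16 for Col5a3. Col1a1 read 13692, 14445 and 14662 and Col1a2 12196, 12753 and 12367 with rosiglitazone, and both overlapped the untreated arrays. Col5a1 read 6673, 7256 and 6784 and Col5a2 6411, 6649 and 6231, also within or beside the untreated range. Col3a1 read 11299.5, 11250.1 and 10739, below all 3 untreated arrays, with adjusted p = 0.0562. Its second probe set was called lower (-0.50, SE 0.076, adjusted p = 0.000545), so type III collagen was not called by one probe set and was by the other. The brightest probe set was also called without untreated replicate 2 (-0.16, adjusted p = 0.0163) and after quantile normalization (-0.18, adjusted p = 0.00148) or scaling to one median (-0.15, adjusted p = 0.0161). Col13a1, a transmembrane collagen, had a wide difference of 0.39 that was not called (SE 0.14). In 11 of the 27 collagens the groups did not overlap, 9 higher and 2 lower, against 26.2% of all genes.

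Of the structural proteins, Ogn, which encodes the small leucine-rich proteoglycan osteoglycin, read 162, 179 and 176 with rosiglitazone against 288, 368 and 247 without. This was a 1.67-fold fall (log2 difference -0.74, SE 0.12, adjusted p = 0.00111), and the untreated arrays were spread widely, with replicate 2 highest. Without that array the difference was -0.59 (adjusted p = 0.00371). The second Ogn probe set, at -0.29 (SE 0.19), was not called. Vcan read 2759, 2474 and 2709.5 (-0.31, SE 0.065, adjusted p = 0.00646) and Lama4, a laminin chain of vessel and fat cell basement membranes, 715, 692 and 658 against 891, 821 and 842 (-0.30, SE 0.059, adjusted p = 0.00418). Their other probe sets gave -0.016 and 0.030 for Vcan and 0.020 for Lama4. The mean of all probe sets of the gene was not called for either (adjusted p = 0.245 and 0.336).

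The other 15 structural proteins lay between -0.11 (Tnc) and 0.16 (Fbln2) with rosiglitazone. Fn1 read 28200.0, 29636 and 28675, Sparc 15245, 15288 and 15129.9, Dcn 15988, 16818 and 16344 and Eln 358, 308 and 263, and none was called. Without untreated replicate 2 Dcn was called lower (-0.16, adjusted p = 0.0102). Sparc, whose brightest probe set differed by 0.041, had a second probe set that rose by 0.22 (adjusted p = 0.0109). Further probe sets of 2 laminin chains were also called higher, Lamb1 by 0.40 (adjusted p = 0.00917) and Lamc1 by 0.44 (adjusted p = 0.0322), although their brightest gave 0.054 and -0.003. Postn read 429, 395 and 389.7 and Fbln5 749, 817 and 737, so neither shared with rosiglitazone the low values seen with S273A. Without untreated replicate 2, 8 collagens and 4 other proteins were called, beside 556 of all genes. The calls of Col15a1, Col4a1, Col4a2, Col6a1, Col6a2, Col6a3, Ogn, Vcan and Lama4 held without any 1 array, and that of Col18a1 was lost without rosiglitazone replicate 2 (adjusted p = 0.0989). Adipocyte markers moved with these changes, 4 of 7 tested being higher, and the summed intensity of that list was 12880.0 to 14780.0 without and 32160.0 to 32610.0 with rosiglitazone. Most of that sum was Fabp4, with means of 9508.6 and 25152.9. Of the 8 fibroblast markers Pdgfra fell by 0.37 and Thy1 by 0.30, and that list summed to 66850.0 to 70650.0. Of the epithelial list Krt18 rose by 0.37. The part of these markers in the matrix changes was not tested.

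**Figure D3:**
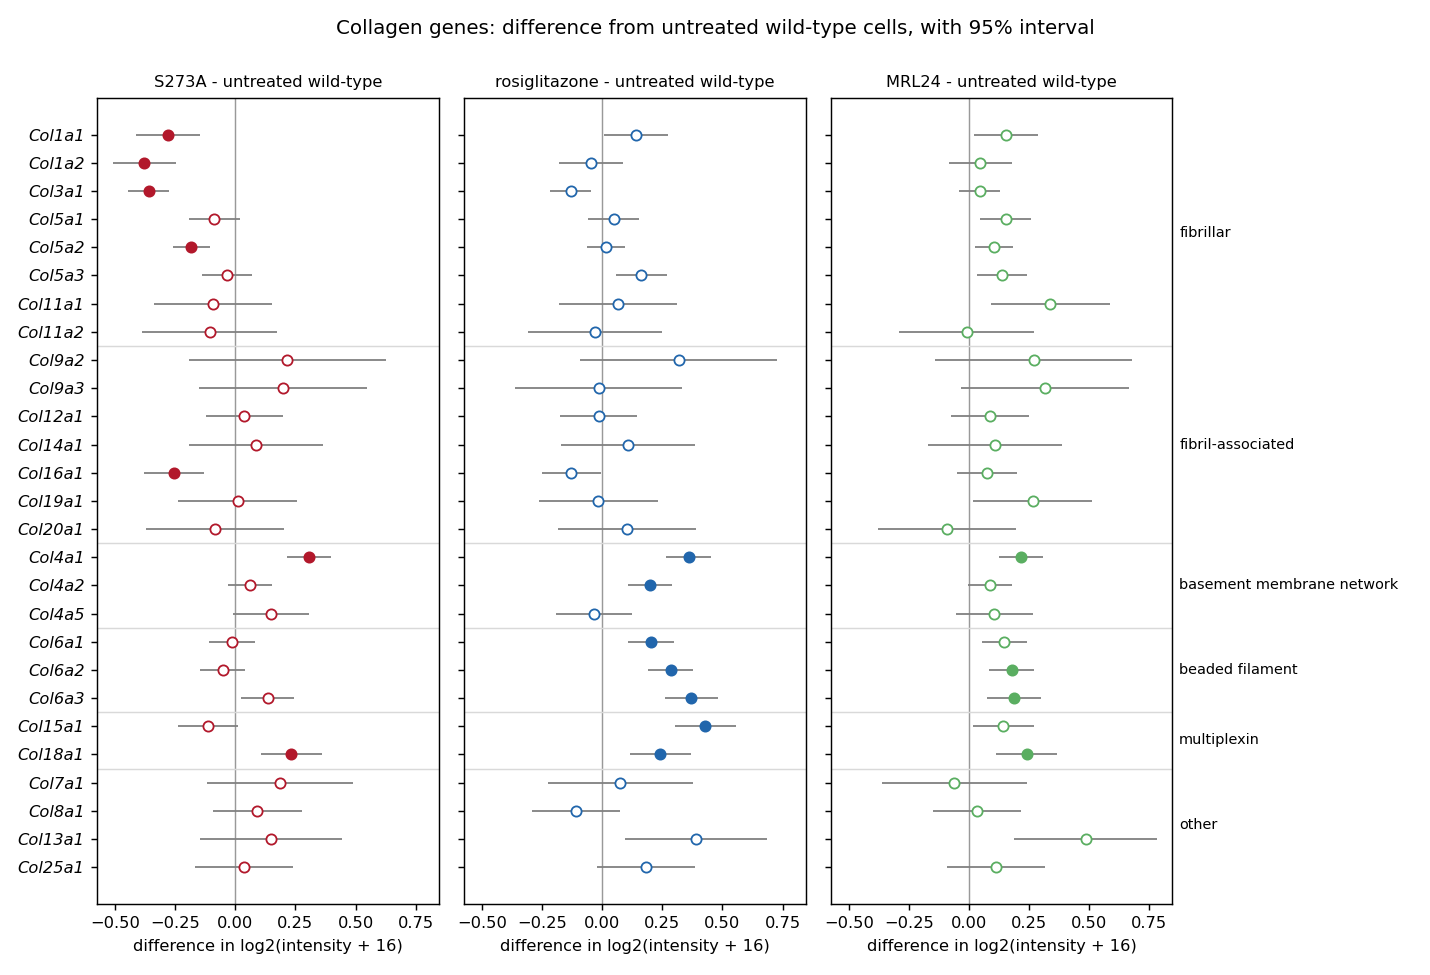
Difference in log2(intensity + 16) between each group and untreated wild-type cells (horizontal axes, bars are 95% intervals, 3 arrays per group) for the 27 tested collagens, sorted by structural type; filled points passed limma's test at an adjusted p under 0.05. The filled points lie to the left for 4 fibrillar chains with S273A, and to the right for type IV, type VI and multiplexin chains with rosiglitazone.

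The third comparison gave MRL24 at the same dose and time. Of 27 collagens 4 rose and none fell, or 14.8% called against 5.86% of all genes (3.39% higher and 2.47% lower): Col4a1, Col18a1, Col6a2 and Col6a3, each by 1.13- to 1.18-fold. The differences of 24 of the 27 were above 0, with a median of 0.14 against 0.0086 over all genes. Scaling all arrays to one median left 22 above 0 and a median of 0.092, and without untreated replicate 2 the median was 0.080. None of the 18 other proteins was called with limma on the probe set used, with an unadjusted p under 0.05 for 6, as for 2183 of the 8675 genes. As features of their own, further probe sets of Lamb1, Nid1 and Lox were called higher (0.41, 0.35 and 0.23, adjusted p = 0.012, 0.0205 and 0.0378). The brightest of these genes gave 0.074, 0.061 and 0.13. In that fit the brightest Vcan probe set was called lower (-0.22, adjusted p = 0.0488).

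Col4a1 read 7166, 7002 and 7567 with MRL24, higher than untreated by 0.22 (SE 0.044, adjusted p = 0.0138), with its second probe set at 0.070. Col18a1 read 6961, 7032 and 7295 (0.24, SE 0.060, adjusted p = 0.0314), with its second at 0.023. These arrays lay above the untreated ones without overlap. Col6a2 read 3931, 3976 and 4098 (0.18, adjusted p = 0.0313) and Col6a3 9966, 10530.5 and 11431 (0.19, adjusted p = 0.0481). Col6a1 read 10831, 10659.8 and 10741, clear of the untreated arrays but not called (0.15, adjusted p = 0.0623). All 3 type VI chains thus had positive differences, of which 2 passed the test. Col4a2 read 4586, 4499 and 4789 and Col15a1 1131, 1229 and 1208, and neither was called (0.087 and 0.14). Col13a1 had the widest difference of the 27, at 0.485 (SE 0.139), and narrowly missed the call (adjusted p = 0.0531). With every probe set as a feature it was called (adjusted p = 0.04). In 13 of the 27 collagens the MRL24 arrays stood apart from the untreated ones, all higher, against 29.7% of genes apart in either direction.

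The fibrillar chains read 13859, 14143 and 15182 for Col1a1, 13299, 12927 and 13580.5 for Col1a2 and 12243, 12563 and 12755 for Col3a1 with MRL24. Their differences of 0.15, 0.047 and 0.044 were not called. The second probe sets of these 3 genes gave -0.164, -0.155 and -0.16, also not called (adjusted p = 0.105, 0.097 and 0.187). The direction thus depended on the probe set. With the mean of all probe sets of a gene, 4 of the 8 fibrillar chains and 21 of the 27 collagens were above 0. Col5a1 and Col5a2 read 7422, 7411 and 7409 and 6803, 6814 and 6856, above the untreated arrays without passing the test (adjusted p = 0.0811 and 0.102). Another Col5a1 probe set was called higher (0.22, SE 0.060, adjusted p = 0.0337), and the remaining one differed by -0.036. Outside the fibrillar chains, the second Col8a1 probe set was called higher (0.29, SE 0.069, adjusted p = 0.0194), where the brightest gave 0.033. Among the other proteins, Ogn read 238, 230.3 and 241 and Vcan 2859, 2802 and 2808, both below every untreated array (adjusted p = 0.124 and 0.0581). Postn read 439, 471 and 453, Fbln5 790.2, 799.5 and 762, Sparc 14688, 15069 and 14939, Fn1 28765, 28797 and 30335, Dcn 17402, 17291 and 18085 and Eln 312, 315 and 375. The calls of all 4 collagens depended on single arrays. Without MRL24 replicate 3 none was kept, at adjusted p = 0.072 (Col4a1), 0.124 (Col18a1), 0.129 (Col6a2) and 0.199 (Col6a3). Without untreated wild-type replicate 2 the Col18a1, Col6a2 and Col6a3 calls were lost (0.0785, 0.0878 and 0.171). Of all 8675 genes, 294 were called higher and 214 lower with MRL24, a split that became 209 and 503 after scaling to one median. Of the adipocyte markers 3 of 7 rose with MRL24, and the summed intensity of that list, most of it Fabp4, was 20140.0 to 20340.0. Of the fibroblast markers Pdgfra fell by 0.23, and that list summed to 70560.0 to 72200.0. The part of these markers in the collagen changes was not tested.

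**Figure D4:**
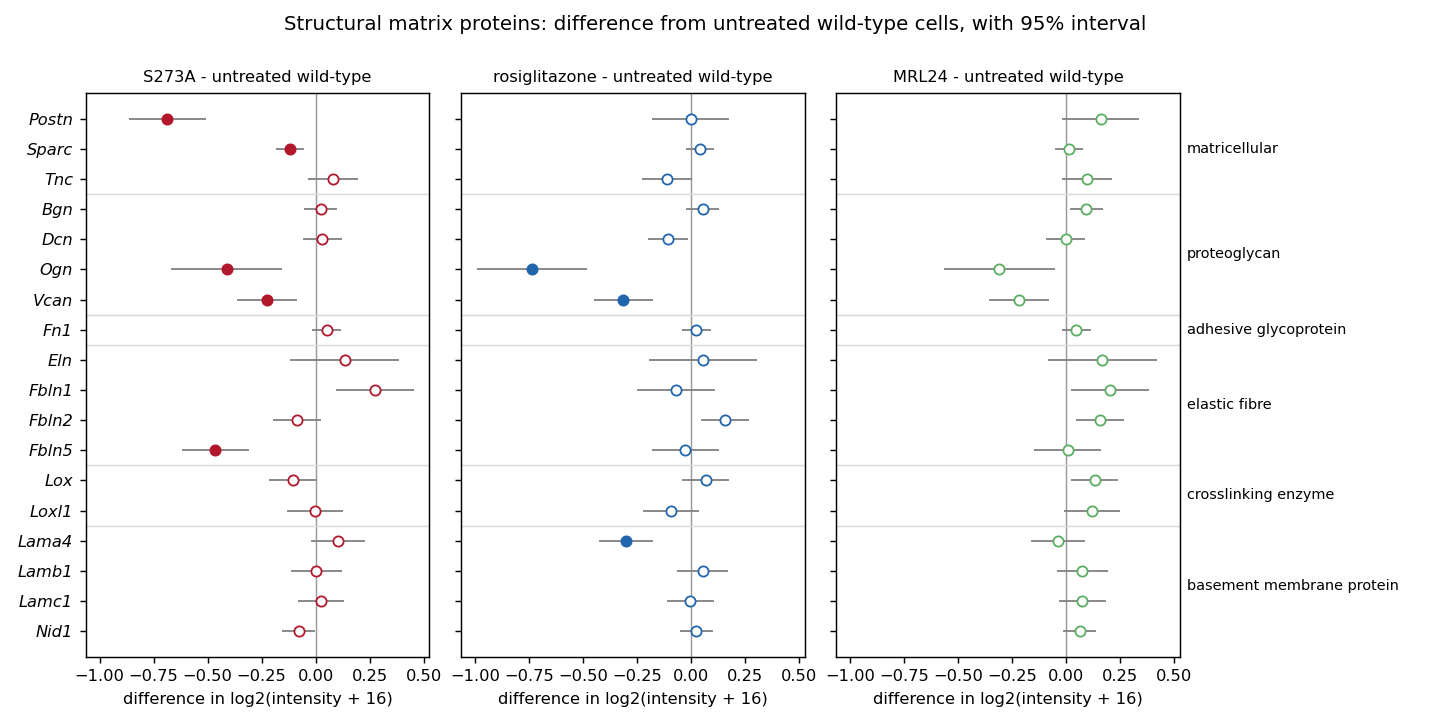
Difference in log2(intensity + 16) between each group and untreated wild-type cells (horizontal axes, bars are 95% intervals, 3 arrays per group) for the 18 tested structural matrix proteins, sorted by role; filled points passed limma's test at an adjusted p under 0.05. Postn and Fbln5 lie farthest left with S273A, Ogn lies farthest left with rosiglitazone, and no point is filled with MRL24.

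The fourth comparison set the 2 ligands against each other at 1 µM and 24 h, the 1 pair of compounds in the series, with p-values adjusted over all genes. Of 27 collagens Col15a1 was higher and Col3a1 lower with rosiglitazone than with MRL24, or 7.41% called against 2.66% of all genes (1.5% higher and 1.16% lower). Of 18 other proteins Lama4 was lower (5.56% called). Col15a1, at 1452 ± 24.9 with rosiglitazone and 1189 ± 51.8 with MRL24 (mean ± SD, n = 3), differed by 0.28 (SE 0.060, adjusted p = 0.016). Col3a1, at 11096 ± 310.2 and 12520.1 ± 259, differed by -0.17 (SE 0.040, adjusted p = 0.0292), and its second probe set by -0.34 (adjusted p = 0.0267). Lama4, at 688 ± 28.7 and 827 ± 9.9, differed by -0.26 (SE 0.059, adjusted p = 0.0258), but by -0.083 on its second probe set. The arrays of the 2 ligands did not overlap in any of the 3.

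For the other collagens that rose with rosiglitazone the difference between the ligands was not called, and its 95% interval was 0.050 to 0.24 for Col4a1, 0.018 to 0.20 for Col4a2, -0.041 to 0.15 for Col6a1, 0.014 to 0.20 for Col6a2, 0.074 to 0.30 for Col6a3 and -0.12 to 0.13 for Col18a1. A missed threshold does not show that the ligands acted alike, and 4 of these 6 intervals, which are not adjusted for the number of genes, lie wholly above 0. The second Col4a1 probe set was called higher with rosiglitazone (0.20, SE 0.045, adjusted p = 0.028). Those of Col6a2 and Col18a1 were not (adjusted p = 0.332 and 0.321). The second Col8a1 probe set was called lower with rosiglitazone than with MRL24 (-0.28, SE 0.069, adjusted p = 0.0429), where the brightest gave -0.14. The brightest Col4a1 and Col6a3 probe sets were called after quantile normalization (adjusted p = 0.0422 and 0.0465) and scaling to one median (0.0405 and 0.0254). Ogn gave -0.42 (95% interval -0.68 to -0.17, adjusted p = 0.0776), the lysyl oxidase Loxl1 -0.21 (adjusted p = 0.0813) and tenascin C (Tnc) -0.20 (adjusted p = 0.0563), all lower with rosiglitazone and none called. In 16 of the 27 collagens the ligand arrays did not overlap, 7 higher and 9 lower with rosiglitazone, and in 9 of the 18 other proteins, 1 higher and 8 lower, against 26% of all genes. All 3 calls were lost without 1 array or another: Col15a1 without rosiglitazone replicate 2 or 3 or MRL24 replicate 1 or 3 (adjusted p up to 0.092), and Col3a1 and Lama4 without rosiglitazone replicate 3 (0.155 and 0.138) and others. Without untreated wild-type replicate 2, which enters here only through the shared spread, 5 collagens and 5 other proteins were called, and the calls over all genes went from 231 to 494. Markers moved between the ligands too: of the adipocyte list Fabp4 (0.71), Lpl (0.58) and Cd36 (1.75) were called higher with rosiglitazone, as was Krt18 (0.51), and Thy1 was called lower (-0.23). Their part in the 3 differences was not tested.

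The 3 comparisons with untreated cells share those arrays, so the members called more than once are given side by side. Col4a1 rose with S273A, rosiglitazone and MRL24, as did Col18a1, with values of 0.31, 0.36 and 0.22 for Col4a1 and 0.23, 0.24 and 0.24 for Col18a1. Without untreated wild-type replicate 2, whose Col18a1 value was the lowest, the Col18a1 differences were 0.15, 0.15 and 0.15, of which the first 2 were called. On the probe sets used, Ogn and Vcan were called lower with S273A and with rosiglitazone, and Col6a2 and Col6a3 higher with both ligands. The S273A calls of Ogn and Vcan and the MRL24 calls of Col4a1, Col6a2 and Col6a3 depended on single arrays. So did all 3 calls of Col18a1. The second Col18a1 probe set was called in none of the 3 comparisons, and that of Col4a1 only with rosiglitazone. No other probe set of Ogn or Vcan was called with S273A or rosiglitazone. Col1a1 read 10679 ± 725 with S273A against 12977 ± 1242, 14267 ± 509 and 14395 ± 696 in the untreated, rosiglitazone and MRL24 groups of wild-type PPARγ (mean ± SD, n = 3). Col6a2 read 4312 ± 38.3 with rosiglitazone against 3538 ± 135, 3412 ± 149 and 4002 ± 86.5 in the untreated, S273A and MRL24 groups. The order for Col15a1 was rosiglitazone, MRL24, untreated and S273A, at 1452 ± 24.9, 1189 ± 51.8, 1075 ± 29.1 and 993 ± 67.7, and of the 3 pairs of neighbours in that order only the 2 ligands passed the test.

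Genes that fold, modify and crosslink collagen were taken as a separate list, of which 20 of 28 were tested. With S273A 1 rose and 2 fell, with rosiglitazone 3 rose and 1 fell, with MRL24 1 rose and 1 fell, and 1 was higher with rosiglitazone than with MRL24. These are 15%, 20%, 10% and 5% of the list, against 7.78%, 8.52%, 5.86% and 2.66% of all genes in the same comparisons. Serpinh1, which encodes the collagen chaperone HSP47, rose from 8931 ± 512 to 10298 ± 320.3 with rosiglitazone (log2 difference 0.21, adjusted p = 0.00854) and to 10129 ± 147 with MRL24 (adjusted p = 0.0305). Plod1, a lysyl hydroxylase of collagen, rose from 1518 ± 102 to 1866 ± 15.5 with S273A (0.30, adjusted p = 0.00264) and to 1724 ± 29.6 with rosiglitazone (adjusted p = 0.0419). Colgalt1, which adds galactose to hydroxylysine, fell from 3607 ± 272 to 2923 ± 250.0 with S273A (-0.30) and to 2799 ± 166 with MRL24 (-0.36), and at 3573 ± 109.8 with rosiglitazone it was the 1 gene of the list called between the ligands. P4ha2, a prolyl hydroxylase subunit, fell by 0.15 with S273A. With rosiglitazone P3h4, of the prolyl 3-hydroxylase family, rose by 0.25 and Mia3, which exports collagen from the endoplasmic reticulum, fell by 0.32. In this list and the next 3, called genes beyond the 4 with the largest change were chosen for naming after their values were seen. The median differences of the list were 0.034, 0.031 and 0.030 with S273A, rosiglitazone and MRL24.

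Of 22 cell surface receptors for matrix, 18 were tested. With S273A none rose and 3 fell: the collagen receptor kinase Ddr1, from 1154 ± 62.6 to 872 ± 25.9 (-0.40, adjusted p = 0.000511), the laminin-binding integrin chain Itga6 (-0.23) and the fibronectin-binding chain Itgav (-0.14). With rosiglitazone 3 rose and 1 fell and with MRL24 5 rose. In the order S273A, rosiglitazone, MRL24 and ligand against ligand, the shares called were 16.7%, 22.2%, 27.8% and 0%, beside the all-gene shares of 7.78%, 8.52%, 5.86% and 2.66%. The integrin chain Itgb3, which pairs with αv to bind fibronectin and vitronectin, rose from 545 ± 72.5 to 763 ± 106 with rosiglitazone and to 806 ± 8.1 with MRL24 (0.47 and 0.56). Itgb1, the common β chain of collagen-binding integrins, rose by 0.22 and 0.25, the heparan sulphate proteoglycan Sdc1 by 0.27 and 0.27, and with MRL24 the collagen-binding chain Itga2 by 0.43 and the syndecan Sdc3 by 0.31. The gene that fell with rosiglitazone was Dag1, which encodes the laminin receptor dystroglycan (-0.22). No receptor was called between the ligands with limma, with an unadjusted p under 0.05 for 3 of the 18 and for 1332 of all 8675 genes.

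Of 17 genes of TGF-β signalling, the main inducer of fibrillar matrix, 16 were tested. The ligand gene Tgfb1 rose from 3687 ± 416 to 4653 ± 225 with rosiglitazone (0.34, adjusted p = 0.00329) and to 4547 ± 76.4 with MRL24 (0.31, adjusted p = 0.0147). Smad7, an inhibitor of the pathway, fell from 4783 ± 292 to 3919.5 ± 83.8 with S273A (-0.28, adjusted p = 0.00437). Tgfbi, a TGF-β-induced matrix protein, read 6636 ± 35.1 untreated, 7240.4 ± 139.8 with S273A, 5347 ± 122 with rosiglitazone and 6302 ± 34.8 with MRL24. It was called higher with S273A and lower with rosiglitazone than untreated, and lower with rosiglitazone than with MRL24. In all 1 rose and 2 fell with S273A, 1 rose and 2 fell with rosiglitazone, 4 rose with MRL24 and 4 were lower with rosiglitazone when the ligands were compared. The list's shares called were 18.8%, 18.8%, 25% and 25%, where 7.78%, 8.52%, 5.86% and 2.66% of all genes were called. The latent TGF-β binding protein gene Ltbp2 was the other that fell with S273A (-0.21) and with rosiglitazone (-0.20). With MRL24 its relative Ltbp1 (0.28), the coreceptor Tgfbr3 (0.39) and the signal transducer Smad3 (0.41) rose beside Tgfb1. Between the ligands Ltbp1 (-0.33), Ltbp2 (-0.21) and Tgfbr3 (-0.41) were lower with rosiglitazone, beside Tgfbi.

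Of 32 further matrix proteins, 18 were tested. With S273A 3 fell and none rose, with rosiglitazone 2 fell, with MRL24 1 rose, and between the ligands 2 were lower with rosiglitazone. The shares of 16.7%, 11.1%, 5.56% and 11.1% compare with 7.78%, 8.52%, 5.86% and 2.66% of all genes, so the MRL24 share was near that of all genes. The microfibril protein Mfap5 fell from 455 ± 73 to 321 ± 12.6 with S273A and to 297 ± 14.4 with rosiglitazone (-0.47 and -0.58), and matrix Gla protein (Mgp), an inhibitor of calcification, fell by 0.26 and 0.39. Both comparisons use the same untreated arrays. The elastic fibre glycoprotein Emilin1 fell by 0.24 with S273A. Thrombospondin 1 (Thbs1), a matricellular protein that activates TGF-β, was lower with rosiglitazone (6812 ± 184) than with MRL24 (9062 ± 181), a difference of -0.41 (adjusted p = 0.00148). Its relative Thbs2 rose with MRL24 (0.19) and was lower with rosiglitazone than with MRL24 (-0.19).

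The members that could not be tested complete the set. The 9 collagens below the intensity filter were Col2a1, Col4a3, Col4a4, Col4a6, Col9a1, Col10a1, Col17a1, Col22a1 and Col26a1, with means over the 12 arrays of 1.4 (Col10a1) to 103 (Col9a1). They include Col2a1 and Col10a1, the collagens that define cartilage and its hypertrophic zone. Col10a1 sat at or near the floor of 1 on every array. Of 7 chondrocyte markers 3 lay above the filter, Sox9, Acan and Comp. The summed level of that list was 4459 to 5353 in untreated, 4456 to 5041 in S273A, 4686 to 5185 in rosiglitazone and 5108 to 5495 in MRL24 arrays. Most of it was Sox9, with a mean of 4189 in untreated cells. Lumican (Lum), a small proteoglycan of collagen fibrils, was dim, at 63.4, 57.1 and 78.2 on the untreated arrays, 67.3, 40.3 and 78.2 with S273A, 78.2, 59 and 80.2 with rosiglitazone and 84.2, 78.5 and 80.3 with MRL24. Fmod, its relative fibromodulin, averaged 74.5. Fbn1 was not matched to a probe set, and the 1 probe set of Loxl2 is also assigned to another gene and was not used.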

How the data were processed

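Total RNA of 12 samples in 4 groups of 3 was converted to biotinylated cRNA and measured on Affymetrix mouse arrays, per the labels' protocols. The deposited values are intensities on a linear scale, 1 for each of 22690 probe sets per array. The authors' background correction, normalization and summary method are not given in the sources used here. Of the probe sets, 20380 carry 1 gene symbol, 691 several and 1555 none, and 64 are controls; 20351 were matched by Entrez ID to RefSeq and no symbol changed. The members and the gene lists were chosen with earlier results of these data known.

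For each gene the probe set with the highest mean over the 12 arrays was used. A gene was tested if its mean reached the 30th percentile of gene means (intensity 132), as 8675 of 12393 did. Values were tested as log2(intensity + 16) with limma 3.58.1 in R 4.3.3 (lmFit and eBayes with a trend), all 12 arrays in 1 fit with 8 residual and 7.56 prior degrees of freedom, and Benjamini-Hochberg adjustment over all genes at 0.05. The fit was checked on simulated data. Arrays give no read depth, so precision rests on the spread between 3 arrays per group, and an exact test of 3 against 3 arrays could not go below 0.1.

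Named with values on every array were up to 10 collagens and 14 other proteins that were called with groups that did not overlap, by largest change, and a list of main fibrillar, network, beaded and adhesive components whatever their result. In the other lists up to 4 called genes each were named by the same order. Alternatives were offsets of 1 and 64, no filter or a 50th percentile filter, quantile normalization or scaling to one median, the mean of all probe sets of a gene, the replicate number as a block, only the 2 groups compared, and each array left out in turn. Every probe set as a feature was added after the data were seen. Residuals of same-numbered arrays correlated between -0.116 and 0.147, so the numbers were not taken to pair the arrays. Promoter stretches came from RefSeq on GRCm38.p6. Python 3.11.15, numpy 2.4.6, pandas 2.3.3 and matplotlib 3.10.9 were used.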

Additional observations from a re-analysis of the deposited data

How the results depend on the processing

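Of 29 called results for members, none reversed in 22 alternatives, 10 kept their call in every alternative in which they could be fitted and 15 kept it without any 1 array. The offset changed no count of calls by more than 1.5 times. Counts of calls that moved further were, for the other structural proteins with S273A (5), 2 without a filter, 8 after quantile normalization, 3 after scaling to one median, 2 with the mean of all probe sets and 2 with only the 2 groups in the fit. With only the 2 groups, the collagens called were 3 with S273A (7), 4 with rosiglitazone (7), 0 with MRL24 (4) and 5 between the ligands (2), and the other proteins 6 between the ligands (1); that fit has fewer arrays to estimate the spread, and its calls over all genes were 243, 372, 50 and 557 in place of 675, 739, 508 and 231. Collagens with MRL24 came to 2 without a filter and 2 after scaling to one median, and other proteins with MRL24 (0) to 1 with the 50th percentile filter, with scaling to one median, with the mean of probe sets and with every probe set as a feature. Between the ligands, collagens came to 1 without a filter and 4 after either normalization, and other proteins to 2 with the 50th percentile filter and 2 after quantile normalization. Apart from the 2-group fit, the cause of these moves was not tested.

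With the replicate number as a block, 2 other proteins were called with S273A, 1 collagen with MRL24 and 1 between the ligands, and the remaining counts stayed within 1.5 times; the arrays share a number only, and the calls lost are not a weaker effect.

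Leaving out 1 array gave 4 to 7 collagens and 2 to 6 other proteins with S273A, 6 to 8 and 3 to 4 with rosiglitazone, 0 to 6 and 0 to 2 with MRL24, and 0 to 5 and 0 to 5 between the ligands. Calls over all genes moved as well, from 396 to 649 with S273A, 392 to 787 with rosiglitazone, 70 to 838 with MRL24 and 99 to 494 between the ligands. The count with S273A moved by over 1.5 times without S273A replicate 3 for collagens (4), and without S273A replicate 3 (2), S273A replicate 2, rosiglitazone replicate 1 or 3 or any MRL24 array (3 each) for other proteins. Collagens with MRL24 came to 1 without wild-type replicate 2 or MRL24 replicate 2, 2 without MRL24 replicate 1 and 0 without MRL24 replicate 3, and other proteins to 2 without wild-type replicate 1 or 3 and 1 without S273A replicate 1 or 3. Between the ligands, leaving out any array of either ligand gave 0 or 1 collagen, and other proteins came to 0 without 5 of those 6 arrays, 5 without wild-type replicate 2 and 2 without wild-type replicate 3 or S273A replicate 3. Fn1 and Bgn read near the array maximum and 11 members below the filter.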
